A study of Mus musculus with 112 samples.

Results

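The lncRNAs described here are 172 mouse transcripts that carry a Gm number, the symbol that mouse nomenclature gives to predicted gene models without another name, and that stood far to the chromatin side in untreated embryonic stem cells (ESCs). They were chosen from their own values in cells before SNRNP70 loss. A member is named Gm and a number, is in both the total RNA and the polyadenylated (polyA) RNA tables of the SNRNP70 degron line, and has a mean log2(FPKM + 0.1) on chromatin at 0 h that exceeds the average of the cytoplasm and nucleoplasm means by at least 3. The rule also leaves out a list of genes by name, 11 of which were in both tables and 4 of which lay at 3 or more. Of 1279 lncRNAs in the total RNA table, 602 Gm lncRNAs were in both tables, 172 were members and 426 Gm lncRNAs lay under 3. All 172 were also in the table of morpholino-treated cells, and 53 were in the table of newly made RNA.

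Long noncoding RNAs are made by RNA polymerase II like messenger RNAs, but many are spliced poorly and stay in the nucleus, some of them close to where they were made. U1 snRNP, the particle that pairs with 5′ splice sites, also keeps RNA polymerase II transcripts from early cleavage and polyadenylation, and U2 snRNP pairs with the branch point at the next step of splicing. SNRNP70 is a protein of U1 snRNP. The series asked how U1 snRNP bears on where noncoding RNA resides in the cell.

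Cells were mouse 46C ESCs (strain 129/Ola). In one set they were nucleofected for 2 h with an antisense morpholino oligonucleotide (AMO): 75 µM of a scrambled control, 75 µM against U1, 75 µM against U2, or 50 µM against U1 and U2 together. In the other set an SNRNP70-AID line made from 46C cells, in which SNRNP70 carries an auxin-inducible degron, was taken at 0 h or after 4 h of 500 µM indole-3-acetic acid (IAA). All AID groups, the 0 h cells included, carry the degron allele, and whether the line is a single clone is not given in the sources used here. For SLAM-seq, a method that marks new RNA with 4-thiouridine (4sU) and reads it as T-to-C changes, AID cells received 4sU for 3 h, either alone or after 2 h of IAA and with IAA present. Cells were kept whole or split into chromatin, cytoplasm and nucleoplasm, and groups had 3 libraries each, except that 2 were used for whole cells with control AMO. Separate cultures behind the libraries of a group are not stated in the labels, and the p-values thus reflect only how these libraries vary, which may be technical. SNRNP70 itself is a protein-coding gene and is not in these lncRNA tables, so its loss was not checked here.

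FPKM is reads per kilobase of transcript and per unit of sequencing depth, scaled by the authors to spiked-in RNA in the fractions but not in whole cells, per the file headers, and the read depth behind it is not given in the sources used here. SLAM-seq values are spike-in scaled counts, not divided by length, from 24927 to 227237 recovered reads per library. The median of all lncRNAs moved with treatment: on chromatin it was 1.83 to 2 FPKM with control AMO, 0.88 to 1.08 with U1 AMO and 1.38 to 1.91 with U2 AMO. Each chromatin comparison is therefore given also after centring, in which every library is set to the median of its lncRNAs. Markers of ESCs were present: 12 of 13 ESC lncRNAs in the total RNA table summed to 210.5 to 275.5 FPKM on 0 h chromatin, against 38.6 to 48.6 for 5 of 9 lncRNAs of differentiated cells. With U1 AMO the summed chromatin level of the first list went from between 195.3 and 210.2 to between 74 and 86, and that of the second from between 21 and 29.3 to between 7.76 and 10.2. Their part in the members' changes was not tested. In bulk fractions, fewer cells holding an RNA and less of it per cell cannot be told apart.

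At 0 h the members were a broad range of levels with a common lean. Their median level was 5.04 FPKM on chromatin (quartiles 3.12 and 10.9, all means 1.22 to 1319), 0.525 in nucleoplasm, 0.207 in cytoplasm and 1.27 in whole cells. The chromatin excess that chose them ran from 3.01 to 4.92 on the log2 scale with a median of 3.56, beside 1.62 for the other Gm lncRNAs and 1.87 for all lncRNAs. Gm43238 was the most abundant, with 1293, 1061 and 1604 FPKM on chromatin, 681, 608 and 686 in nucleoplasm and 32.5, 35.5 and 29.7 in cytoplasm of the 3 libraries each. Every nucleoplasm library lay under every chromatin library, and cytoplasm far under both. Gm37404 (461, 368 and 680.4 on chromatin, 238, 190.2 and 242 in nucleoplasm) had the same order of fractions. Gm37701 had 371, 278 and 372 on chromatin but only 46.6, 39.2 and 38.7 in nucleoplasm and 20.1, 17.8 and 20.3 in cytoplasm. Gm37746, Gm37903, Gm29055, Gm43601 and Gm26853 completed the 8 highest, down to 96.3, 82.7 and 92.9 on chromatin for Gm26853. The largest excess was that of a far less abundant RNA. Gm37653 had 6.25, 5.14 and 5.83 on chromatin, 0.24, 0.14 and 0.18 in nucleoplasm and 0.07, 0.03 and 0 in cytoplasm (excess 4.92). Just inside the limit stood Gm44153 and Gm6410 (both 3.006) and Gm4117 (3.012), and just outside it Gm20631 (2.999), Gm44660 (2.993) and Gm26779 (2.985). These values are a description, since they chose the members.

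**Figure D1:**
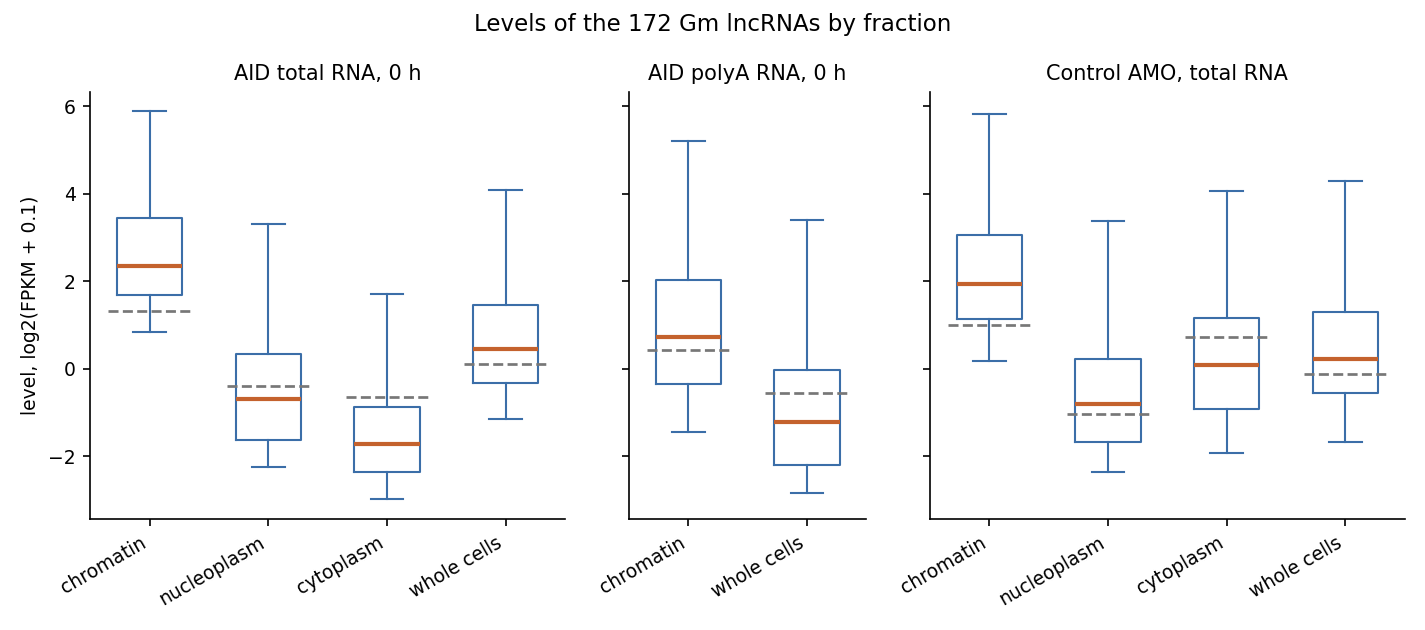
Level, as log2(FPKM + 0.1), of the 172 members by fraction at 0 h in total RNA, at 0 h in polyA RNA and with control AMO. Boxes span the quartiles of the members' means, orange lines their median, whiskers the 5th to 95th percentile, and dashed lines the median of all lncRNAs; the member median is above the dashed line on chromatin in each panel and below it in cytoplasm.

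Most lncRNAs of a list of nuclear-retained RNAs lay under the limit by the same measure. At 3 or more stood 2 of the 11 that were measured, Kcnq1ot1 (4.77), the antisense RNA of an imprinted domain, and Tsix (3.05), the antisense partner of Xist. The median of the 11 was 1.875, with Malat1 at 1.10, Neat1 at 1.40 and the lowest, Rian, at 0.838. Symbols numbered above 30000 made up 147 of 172 members (85.5%) and 231 of the 426 other Gm lncRNAs (54.2%). Only 5 members had an entry of their own in the RefSeq table of build GRCm38.p6. Gm26691 (chromosome 3, 133830621 to 134149286), Gm40309 (chromosome 5, 65541661 to 65563976), Gm4117 (chromosome 13, 89733697 to 89790770) and Gm6410 (chromosome 8, 4674840 to 4688740) are lncRNA genes there, and Gm3081 (chromosome 9, 100875463 to 100877964) is a pseudogene. Gm7265 is listed there as a synonym of Nedd4, a protein-coding ubiquitin ligase, so its values may not be those of a separate RNA. Whether the authors' values count 1 strand is not given in the sources used here, and a member inside or opposite another gene may share reads with it. Among the members 22 have a neighbour in number, such as Gm43312 and Gm43313, Gm45205 and Gm45206, and Gm45220 to Gm45223; their positions were not used here, and such members may not be separate measurements.

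The lean to chromatin was also present in libraries that the choice did not use. In control AMO cells all 172 members had a positive difference between chromatin and the mean of cytoplasm and nucleoplasm, with a median of 2.22 and a range of 0.95 to 3.06 on the log2 scale. In limma 170 of 172 passed adjusted p 0.05, where 59.3% of all lncRNAs tested were higher and 9.95% lower on chromatin and their median was 1.10. The other Gm lncRNAs had a median of 0.92 and 237 of 426 higher. After centring 143 of 172 members passed, with a median of 1.11, where 768 of 1277 lncRNAs passed in either direction. The 2 that did not pass, named after their values were seen, were variable: Gm37746 had 339.5, 787 and 307 on chromatin against 135, 407 and 294 in cytoplasm and 288, 137 and 71.3 in nucleoplasm, and Gm37581 had 1.67, 1.74 and 2.44 against 1.5, 0.55 and 2.42 and 0.82, 0.35 and 0.75. Chromatin and cytoplasm libraries of both overlapped. In AID cells after 4 h of IAA, 172 of 172 were higher on chromatin, where 55.4% of all lncRNAs were higher and 18.7% lower. The median was 3.10 beside 1.06 for all lncRNAs. After centring 164 of 172 members passed, and 1000 of 1277 lncRNAs in either direction. That fit also held the 0 h libraries that chose the members, in its spread and its filter on low values, so these calls are a description. From 4 h libraries alone, every chromatin library lay above every soluble library in 170 of 172 members and 634 of 1277 lncRNAs. Cytoplasm differed between the sets: the members' median there was 0.957 FPKM with control AMO, above their nucleoplasm median of 0.47, and 0.207 in 0 h AID cells, below their nucleoplasm median. The 2 sets were normalized separately, so this is a difference of order within each set. It was not particular to the members. Over all lncRNAs the cytoplasm and nucleoplasm medians were 1.55 and 0.393 with control AMO, and 0.537 and 0.663 in 0 h AID cells.

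**Figure D2:**
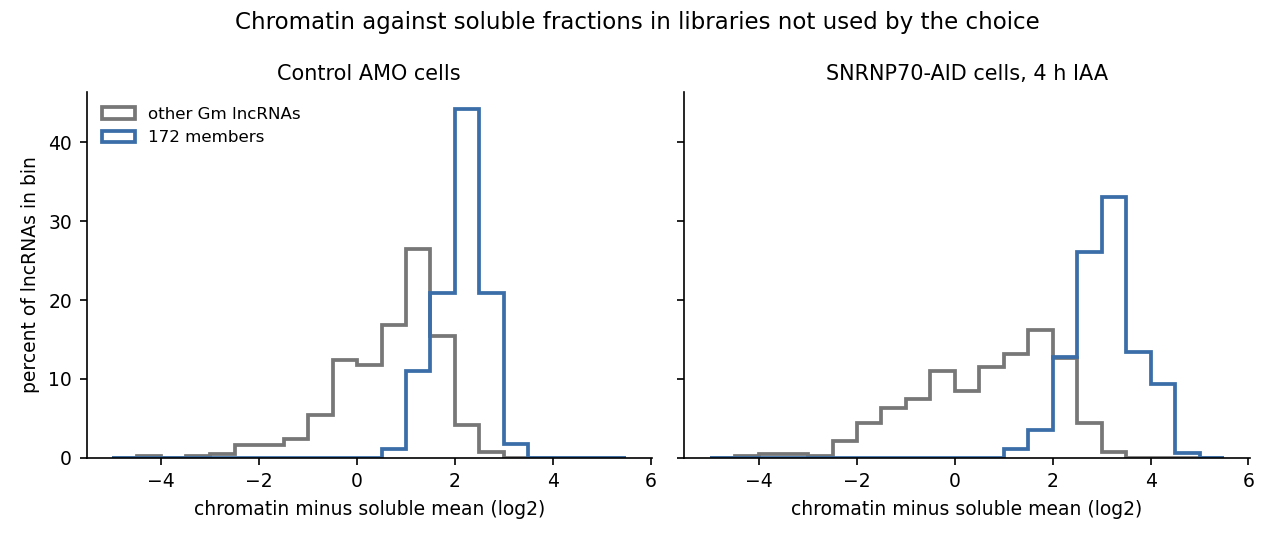
Share of lncRNAs (percent, bins of 0.5) by chromatin level minus the mean of cytoplasm and nucleoplasm (log2), for the 172 members in blue and the 426 other Gm lncRNAs in grey, in control AMO cells and in AID cells after 4 h of IAA. The members' medians of 2.22 and 3.10 stand to the right of 0.92 and 0.93 for the other Gm lncRNAs.

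With U1 AMO the members split on chromatin. Of 172 tested in limma 104 fell, 22 rose and 46 did not pass, with a median of -0.89 on the log2 scale. Among all lncRNAs tested 51.8% fell and 5.1% rose, with a median of -0.80, beside 60.47% and 12.79% of the members. Among the other Gm lncRNAs 8 of 422 rose and 222 fell. After centring the split turned to 48 higher and 20 lower (median -0.05). Over all lncRNAs 371 of 1256 then passed in either direction (median 0.04). The 8 called members named next kept their direction and their call. Leaving out any 1 library gave 106 to 117 calls.

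Gm28791 had 8.61, 10.1 and 10.8 FPKM on chromatin with control AMO and 22.1, 26.9 and 33.5 with U1 AMO (log2 1.45, SE 0.19, adjusted p = 0.000121). Every U1 library stood far above every control library. Gm43312 went from 2.17, 2.09 and 2.78 to 6.52, 6.77 and 7.97 (log2 1.52, SE 0.22, adjusted p = 0.000201). Gm45477 went from 4.14, 4.9 and 5.37 to 10.3, 14.1 and 15.9 (log2 1.43, SE 0.25, adjusted p = 0.000638). Gm37531 went from 1.41, 1.42 and 1.69 to 3.61, 4.18 and 4.98 (log2 1.38, SE 0.19, adjusted p = 0.000121). In each of these the groups did not overlap. Among the falls, Gm37509 went from 6.2, 5.41 and 7.43 to 0.86, 1.36 and 1.66 (log2 -2.16, SE 0.22, adjusted p = 2.47e-05). Gm26809 had a tight control group of 9.71, 9.66 and 10.1 and 2.06, 3.37 and 2.88 with U1 AMO (log2 -1.78, SE 0.23, adjusted p = 9.86e-05). Gm15903 went from 3.92, 6.51 and 3.16 to 1.2, 0.68 and 0.79 (log2 -2.08, SE 0.31, adjusted p = 0.000209). The steepest fall, that of Gm13663, was also the least precise, from 5.59, 2.98 and 4.18 to 0.68, 1.24 and 0.16 (log2 -2.49, SE 0.56, adjusted p = 0.00248). The most abundant member did not pass: Gm43238 had 1103, 1957 and 1875 with control and 774, 1559 and 1494 with U1 AMO (log2 -0.39, SE 0.41, adjusted p = 0.432), and library 1 was the lowest in both groups. With the replicate number as a block, which pairs these libraries, it passed as lower (SE 0.12, adjusted p = 0.016). After centring its value was 0.45, the opposite sign (adjusted p = 0.358).

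**Figure D3:**
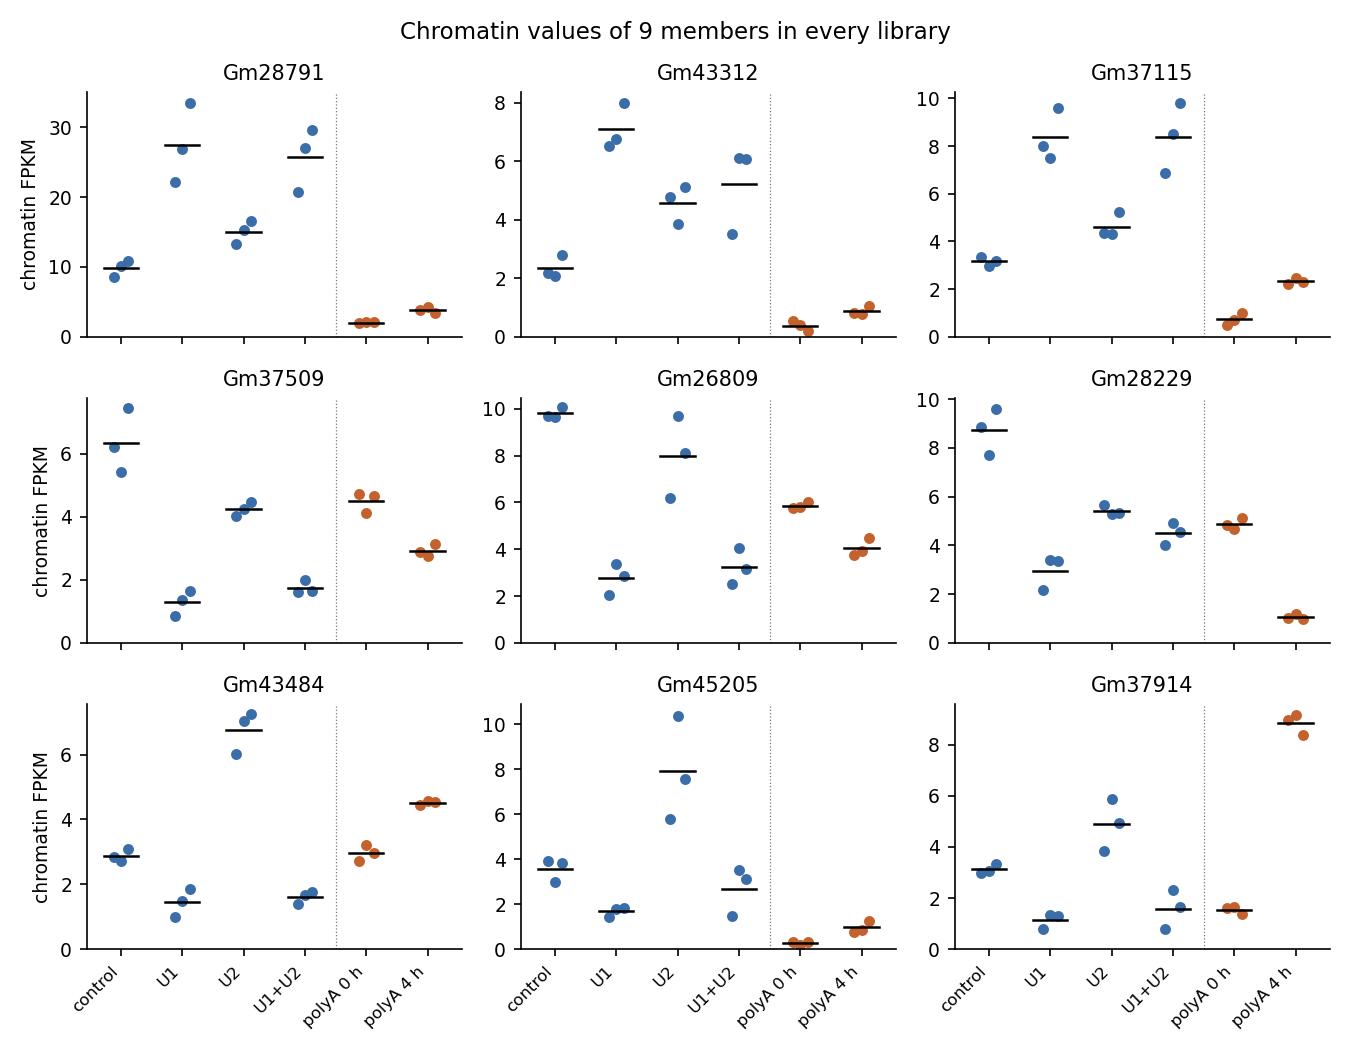
Chromatin FPKM of 9 members in every library: total RNA with control, U1, U2 or U1+U2 AMO in blue and polyA RNA of AID cells at 0 h and 4 h of IAA in orange, with black lines for the mean. Gm28791, Gm43312 and Gm37115 are higher with U1 AMO and at 4 h, Gm37509, Gm26809 and Gm28229 lower in both, and Gm43484, Gm45205 and Gm37914 lower with U1 AMO but higher at 4 h.

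Outside chromatin U1 AMO gave more calls of rises than of falls among the members, though most members did not pass. Their median change was 0.09 in nucleoplasm, -0.15 in cytoplasm and -0.16 in whole cells. All lncRNAs had medians of -0.0009, -0.20 and -0.21. Below 0 lay 61 of 157, 98 of 167 and 102 of 171 members in that order. In nucleoplasm 38 of 157 tested rose and 2 fell (10.5% and 3.68% of all lncRNAs tested), and 15 members were too low to test. After centring 39 rose and 10 fell, where 247 of 1142 lncRNAs passed in either direction. The rises there were large. Gm37522 had 0.32, 0.49 and 0.53 with control AMO and 7.07, 4.45 and 7.13 with U1 AMO (log2 3.29, SE 0.24, adjusted p = 8.43e-07). Gm17024 had 1.24, 0.99 and 1.88 and 11.7, 7.92 and 11.9 (log2 2.79, SE 0.27, adjusted p = 9.37e-06). No U1 library of either came near a control library. Both that fell did so less steeply: Gm37509 from 1.83, 1.19 and 1.3 to 0.41, 0.46 and 0.44 (log2 -1.35, SE 0.28, adjusted p = 0.00464) and Gm37206 from 10.8, 8.78 and 7.4 to 4.46, 3.61 and 3.59 (log2 -1.16, SE 0.23, adjusted p = 0.0032). Of the 22 members that rose on chromatin, 21 also rose in nucleoplasm and 21 in whole cells. None of the 104 that fell on chromatin passed as higher in nucleoplasm or in whole cells. These overlaps were not counted over all lncRNAs, so they cannot be read as particular to the members. Fractions were separate libraries, but the labels do not say whether they came from separate cells.

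In cytoplasm 14 of 167 members tested rose with U1 AMO and 1, Gm37509, fell (log2 -1.53, SE 0.37, adjusted p = 0.0254), a call lost without control library 2 or 3 or any U1 library (adjusted p from 0.0691 to 0.103); among all lncRNAs 3.95% rose and 3.38% fell. The count fell from 15 to 9, 9 and 8 without control library 1, U1 library 2 or U1 library 3. Gm45222 went from 0.66, 0.65 and 0.64 to 3.56, 3.59 and 4.16 in cytoplasm (log2 2.22, SE 0.26, adjusted p = 0.00144), and Gm45223, next to it in number, from 0.84, 0.77 and 0.59 to 2.62, 3.34 and 4.72 (log2 1.98, SE 0.34, adjusted p = 0.0047). Both groups stayed apart in each. In whole cells, where control AMO had 2 libraries, 31 of 171 rose and 17 fell (6.24% and 7.19% of all lncRNAs; 35 and 9 after centring), with 28 calls in place of 48 without control library 1. Over all lncRNAs 160 of 1251 passed in either direction after centring. Gm28791 went from 2.51 and 2.72 to 12.9, 12.9 and 11.8 (log2 2.18, SE 0.16, adjusted p = 3.06e-05) and Gm43312 from 0.44 and 0.61 to 3.01, 3 and 2.81 (log2 2.12, SE 0.22, adjusted p = 0.000175). Gm28229 fell from 3.07 and 3.24 to 0.64, 1.34 and 1.34 (log2 -1.41, SE 0.27, adjusted p = 0.00616). Gm37509 went from 1.69 and 2.31 to 0.82, 0.75 and 0.76 (log2 -1.16, SE 0.27, adjusted p = 0.0177), a call lost without either control library (adjusted p = 0.0549 and 0.144).

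A single measure of relocation with U1 AMO subtracts the average of both soluble fractions' log2 changes from the chromatin change. This shift was negative in 169 of 172 members, with a median of -0.75, beside 1176 of 1277 (92.1%) and a median of -0.66 for all lncRNAs. It passed in 46, all away from chromatin (19.7% of all lncRNAs tested, and 0.0783% towards it). After centring 0 passed and the median was 0.09, the opposite sign, so the shift cannot be told apart from the lower level of chromatin libraries as a whole. Without control chromatin library 3 or U1 chromatin library 1 the count was 23 and 20.

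U2 AMO left most members on chromatin without a call: 7 rose, 3 fell and 162 did not pass, with a median of -0.02 beside -0.14 for all lncRNAs. Among all lncRNAs tested 2.79% rose and 5.02% fell. At unadjusted p under 0.05 there were 29 members, and 282 of 1256 lncRNAs. Same-numbered chromatin libraries varied together, and with the replicate number as a block 15 rose and 9 fell. After centring 26 rose and 3 fell. Over all lncRNAs 189 passed in either direction with the block and 147 after centring. Leaving out control library 1 or 2, or U2 library 1 or 3, left 5, 5, 6 and 5 calls. U1 and U2 AMO share their control libraries, so their values are set side by side only. Gm43484 had 2.85, 2.7 and 3.1 FPKM with control AMO and 6.02, 7.03 and 7.24 with U2 AMO (log2 1.17, SE 0.21, adjusted p = 0.00514), against 0.99, 1.48 and 1.86 with U1 AMO (log2 -0.94, SE 0.21, adjusted p = 0.00237). Gm45205 had 3.93, 2.96 and 3.82, 5.77, 10.4 and 7.56 (log2 1.07, SE 0.3, adjusted p = 0.0455) and 1.42, 1.78 and 1.83 (adjusted p = 0.0123) in the same order. Both thus lay above control with U2 and below it with U1, with no overlap, but after centring neither passed with U1 AMO (adjusted p = 0.684 for Gm43484 and 0.601 for Gm45205). Gm43312 had 4.77, 3.85 and 5.13 with U2 AMO (log2 0.91, SE 0.22, adjusted p = 0.0258) and Gm43313 4.6, 6.37 and 5.41 against 2.77, 2.45 and 3.36 with control (log2 0.89, SE 0.21, adjusted p = 0.0215), and both rose with U1 AMO too. The U2 call of Gm45205 was lost without each library other than U2 library 1 (adjusted p up to 0.136), that of Gm43312 without control library 1 or 2 or U2 library 1 or 3 (up to 0.111) and that of Gm43313 without control library 1 or 2 or U2 library 2 or 3 (up to 0.0828). The 3 falls were Gm15903, to 0.99, 1.16 and 0.99 (log2 -1.86, SE 0.31, adjusted p = 0.00429), Gm7265, from 8.11, 6.47 and 9.21 to 2.85, 2.84 and 2.51 (log2 -1.46, SE 0.18, adjusted p = 0.000782), and Gm42531, from 3.35, 3.07 and 3.06 to 0.96, 1.53 and 1.2 (log2 -1.25, SE 0.25, adjusted p = 0.00989). With U1 AMO their changes were -2.08, -1.51 and -1.34.

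In nucleoplasm U2 AMO raised many members and lowered none that passed: 71 of 157 rose, where 19.4% of all lncRNAs tested did, with a median of 0.72 beside 0.45. After centring 33 rose and 5 fell, where 132 of 1142 lncRNAs passed in either direction. Without control library 2, control library 3 or U2 library 1 the count was 47, 43 and 44. Gm45205 went from 0.41, 0.19 and 0.16 to 2.41, 1.69 and 1.46 (log2 2.19, SE 0.32, adjusted p = 0.00032), while with U1 AMO it had 0.31, 0.21 and 0.13, near the controls. Gm37522 went from 0.32, 0.49 and 0.53 to 2.95, 2.47 and 2.45 (log2 2.14, SE 0.24, adjusted p = 6.76e-05). In cytoplasm U2 AMO gave 0 calls in limma among 167 members tested (0.403% of all lncRNAs rose and 0.886% fell). At unadjusted p under 0.05 stood 16 members, and 178 of 1242 lncRNAs.

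U1+U2 AMO, given at 50 µM where single AMOs were given at 75 µM, had 95 members lower and 17 higher on chromatin of 172 (49.2% and 3.82% of all lncRNAs tested), with a median of -0.80; after centring 45 were higher and 10 lower. Over all lncRNAs 291 of 1256 passed in either direction after centring. Gm28791 had 20.7, 27.1 and 29.6 (log2 1.36, SE 0.19, adjusted p = 0.000223), close to its U1 values. Gm37115 went from 3.35, 2.99 and 3.2 to 6.85, 8.5 and 9.8 (log2 1.33, SE 0.18, adjusted p = 0.00014). Gm37509 had 1.61, 1.99 and 1.66 (log2 -1.74, SE 0.22, adjusted p = 0.000109) and Gm26809 2.5, 4.05 and 3.15 (log2 -1.57, SE 0.23, adjusted p = 0.000249). The falls of Gm13663 (log2 -2.18, SE 0.56, adjusted p = 0.00634) and Gm37303 (log2 -1.77, SE 0.39, adjusted p = 0.00293) were not past the threshold after centring (adjusted p = 0.104 and 0.0917).

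Set against each other at 75 µM, U1 and U2 AMO differed on chromatin in 107 of 172 members. With U1 AMO 89 were lower and 18 higher than with U2 AMO (40% and 5.33% of all lncRNAs tested). The median was -0.82 beside -0.58 for all lncRNAs. After centring 36 were lower and 41 higher, where 354 of 1256 lncRNAs passed in either direction. The widest gaps downward were Gm43484 (log2 -2.12, SE 0.21, adjusted p = 1.69e-05) and Gm45205 (log2 -2.08, SE 0.3, adjusted p = 0.00027), whose values are above. Gm37914 had 0.79, 1.35 and 1.3 with U1 and 3.84, 5.9 and 4.95 with U2 AMO (log2 -1.93, SE 0.31, adjusted p = 0.000527), around controls at 2.99, 3.06 and 3.32. Gm26869 had 1.22, 2.09 and 1.7 and 5.05, 8.4 and 6.29 (log2 -1.86, SE 0.29, adjusted p = 0.000428). In the other direction Gm37531 had 1.48, 1.82 and 1.77 with U2 AMO, near its control values (log2 1.23, SE 0.19, adjusted p = 0.00033). Gm17024 had 15.8, 16.5 and 17.5 with U1 and 6.56, 9.99 and 6.15 with U2 AMO (log2 1.15, SE 0.21, adjusted p = 0.00129). Gm43571 had 11.8, 16.2 and 17.4 and 5.46, 8.21 and 8.24 (log2 1.04, SE 0.25, adjusted p = 0.00587). Gm38359 also passed (log2 1.07, SE 0.33, adjusted p = 0.0204), but not without U1 library 2 or 3 or U2 library 1 (adjusted p from 0.0678 to 0.0774).

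**Figure D4:**
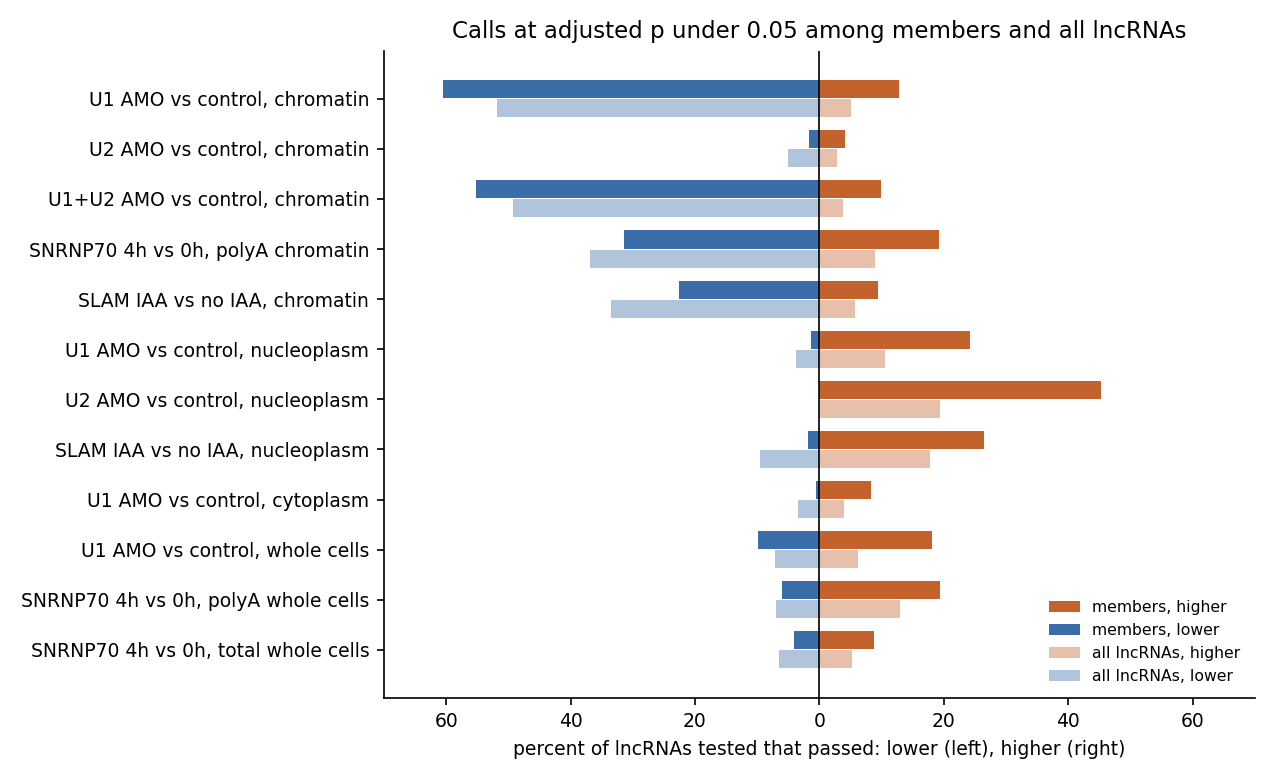
Percent of lncRNAs tested that passed adjusted p 0.05 in limma, lower to the left and higher to the right of 0, for the members in full colour and all lncRNAs in pale colour, by comparison. Bars to the left are longest for U1 AMO on chromatin (104 of 172 members), and the longest to the right is U2 AMO in nucleoplasm (71 of 157).

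Loss of SNRNP70 for 4 h gave changes in both directions in polyA RNA on chromatin. Of 172 members 33 rose, 54 fell and 85 did not pass, with a median of -0.20 beside -0.37 for all lncRNAs, of which 8.96% rose and 36.8% fell. Among the other Gm lncRNAs 46 of 426 rose and 177 fell. After centring 58 members were higher and 16 lower, with a median of 0.29. Over all lncRNAs 433 of 1217 then passed in either direction, with a median of 0.11. Gm37914 went from 1.62, 1.64 and 1.38 FPKM at 0 h to 8.98, 9.18 and 8.4 at 4 h (log2 2.45, SE 0.12, adjusted p = 1.15e-05). Gm45206 went from 1.76, 1.64 and 1.64 to 5.95, 6.24 and 6.69 (log2 1.84, SE 0.11, adjusted p = 2.33e-05) and Gm45221 from 1.63, 1.42 and 1.75 to 6.09, 6.68 and 5.07 (log2 1.83, SE 0.15, adjusted p = 7.00e-05). These 3 stood far above their 0 h range in every 4 h library. Gm38359 went from 2.67, 2.88 and 2.99 to 9.32, 9.63 and 8.78 (log2 1.67, SE 0.097, adjusted p = 2.33e-05). Gm37581 fell from 9.84, 9.48 and 7.6 to 1.77, 1.33 and 0.95 (log2 -2.68, SE 0.22, adjusted p = 7.39e-05) and Gm37303 from 6.7, 7.45 and 5.87 to 1.38, 1.35 and 0.78 (log2 -2.45, SE 0.22, adjusted p = 0.000104). Gm28229 fell from 4.83, 4.67 and 5.14 to 1.04, 1.17 and 0.99 (log2 -2.10, SE 0.13, adjusted p = 2.33e-05), and Gm43339 from 3.91, 3.3 and 4.66 to 1.5, 1.34 and 1.25 (log2 -1.46, SE 0.16, adjusted p = 0.000328). All 8 kept their call after centring. The abundant Gm43238 moved little but evenly, from 1988, 1999 and 1952 to 1559, 1550.0 and 1417 (log2 -0.39, SE 0.045, adjusted p = 0.000359), but after centring its value was 0.09 (adjusted p = 0.29). Marker levels moved as well: 11 ESC lncRNAs in that table summed to between 323.7 and 343.3 FPKM on chromatin at 0 h and between 126.6 and 128.5 at 4 h, and 4 of 9 lncRNAs of differentiated cells to between 25.8 and 28.6 and between 29 and 30.7. Their part in the members' changes was not tested.

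Total RNA of the same fraction is described without a test, because its 0 h libraries chose the members. There 135 of 172 members lay lower at 4 h, with a median of -0.54 beside -0.65 for all lncRNAs. Libraries did not overlap for 90 lower and 16 higher members, against 52.4% and 4.37% of all lncRNAs. The ESC lncRNAs summed there to between 94.3 and 113.5 FPKM at 4 h, under their 0 h sums given above. Of the 54 members that fell in polyA RNA 52 lay lower in total RNA too, and of the 33 that rose in polyA RNA 23 lay higher and 10 lower in total RNA (median 0.20). Most others lay lower in total RNA as well: 73 of the 85 members not passed in polyA RNA, and 1025 of 1260 among all lncRNAs. The overlap of the 2 RNA kinds was not counted over all lncRNAs. In the soluble fractions of total RNA, libraries did not overlap for 13 higher and 13 lower of 139 in cytoplasm (11.5% and 12.8% of all lncRNAs) and for 37 higher and 23 lower of 164 in nucleoplasm (11.6% and 24%). The size of change on chromatin differed between the RNA kinds. Gm37914 had 6.3, 4.7 and 5.37 at 0 h and 8.45, 7.96 and 6.81 at 4 h in total RNA, and Gm45221 6.27, 5.22 and 6.56 and 6.51, 5.73 and 3.88, with overlap. Gm42531, chosen here after its values were seen, lay lower in both, from 3.58, 3 and 3.83 to 0.38, 0.41 and 0.33 in total RNA and from 2.74, 2.77 and 2.02 to 0.31, 0.45 and 0.28 in polyA RNA.

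In whole cells at 4 h, calls of rises outnumbered calls of falls among the members, in values not scaled to spiked-in RNA. The median change was 0.19 in polyA RNA beside 0.10 for all lncRNAs, and 0.06 in total RNA beside -0.07. Below 0 lay 59 of 149 members in polyA RNA and 81 of 172 in total RNA. In polyA RNA 29 of 149 members tested rose and 9 fell (13% and 7.05% of all lncRNAs), while 23 were too low to test. The count of 38 was 22, 24, 21, 22 and 25 without 0 h library 1 or 2 or 4 h library 1, 2 or 3. Gm45221 went from 0.38, 0.4 and 0.43 to 2.19 in each (log2 2.19, SE 0.21, adjusted p = 0.000188) and Gm37914 from 0.67, 0.32 and 0.71 to 2.9, 2.62 and 2.11 (log2 2.04, SE 0.29, adjusted p = 0.00183). Gm37303 fell from 1.42, 2.05 and 1.46 to 0.46, 0.45 and 0.43 (log2 -1.66, SE 0.24, adjusted p = 0.00199) and Gm28229 from 1.14, 1.74 and 1.47 to 0.29, 0.49 and 0.48 (log2 -1.58, SE 0.28, adjusted p = 0.00494). These 4 moved as they did on chromatin. Of the 29 that rose in whole cells, 22 also rose in chromatin polyA RNA (75.9% of 29 and 66.7% of 33), and of the 9 that fell 8 fell there. Over all lncRNAs tested in both, 68 of 147 that rose in whole cells rose on chromatin (46.3%), and 76 of 80 that fell in whole cells fell on chromatin (95%). In total RNA of whole cells 15 of 172 rose and 7 fell (5.31% and 6.5% of all lncRNAs), with 12, 11, 13 and 10 calls in place of 22 without 0 h library 1 or 3 or 4 h library 1 or 2. Gm37115 went from 1.07, 0.81 and 0.76 to 3.2, 3.37 and 3.19 (log2 1.79, SE 0.2, adjusted p = 0.00252) and Gm38359 from 2.55, 2.44 and 1.98 to 7.17, 5.38 and 7.84 (log2 1.50, SE 0.19, adjusted p = 0.00455). Gm26624 (log2 -1.01, SE 0.21, adjusted p = 0.0222) and Gm38009 (log2 -0.87, SE 0.21, adjusted p = 0.0383) fell, but the call of Gm26624 was lost without any 0 h library or 4 h library 2 (adjusted p up to 0.0707) and that of Gm38009 without any of the 6 libraries (up to 0.113) and after centring.

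Newly made RNA was measured for 53 members. Their median on chromatin without IAA was 231.2 in spike-in scaled counts, beside 57.9 for all lncRNAs in that table, 34 in nucleoplasm and 13.1 in cytoplasm. Libraries of chromatin held total RNA and those of cytoplasm and nucleoplasm polyA RNA, so levels are not compared between fractions. The highest counts belonged to Gm28791, Gm38359, Gm37274, Gm37258, Gm26624 and Gm38042, an order that also holds their unknown lengths. With IAA, 5 of 53 rose on chromatin and 12 fell (5.67% and 33.6% of all lncRNAs), with a median of -0.09 beside -0.41. After centring 21 rose and 4 fell, where 161 of 423 lncRNAs passed in either direction. Without library 3 of the cells without IAA the count before centring was 11. New RNA of 10 ESC lncRNAs on chromatin summed to between 951.5 and 1132 counts without IAA and between 284.1 and 401.5 with it, and that of 2 of 9 lncRNAs of differentiated cells to between 58.1 and 100.3 and between 84.6 and 141.4. Their part in these changes was not tested. Gm38359 went from 1231, 1270.0 and 1241 to 2326, 2253 and 2349 (log2 0.88, SE 0.13, adjusted p = 9.95e-05), with narrow groups far apart. Gm28791 went from 1680.0, 2071 and 1495 to 3264, 2923 and 3238 (log2 0.85, SE 0.15, adjusted p = 0.000415) and Gm37258 from 798, 832 and 744 to 1527, 1202 and 1257 (log2 0.73, SE 0.14, adjusted p = 0.00113). Gm40309 was the least changed of the 5, from 622, 729.6 and 712 to 901, 957 and 916 (log2 0.42, SE 0.14, adjusted p = 0.0242), and not past the threshold without library 1 or 3 of the cells without IAA or IAA library 2 or 3 (adjusted p from 0.0596 to 0.104). Gm43484 passed (log2 0.55, SE 0.17, adjusted p = 0.0177), but not without library 3 of the cells without IAA (adjusted p = 0.104). Gm38162 fell from 246, 333 and 270.2 to 66.5, 68.2 and 65.6 (log2 -1.95, SE 0.19, adjusted p = 5.48e-06), Gm37303 from 142, 112 and 118 to 28.5, 29 and 20.3 (log2 -1.96, SE 0.25, adjusted p = 4.01e-05) and Gm37274 from 1144, 1109 and 1163 to 458, 597 and 536 (log2 -1.10, SE 0.14, adjusted p = 5.37e-05).

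Where new RNA of the soluble fractions passed, it rose in all members but Gm37303. After centring 12 rose and 3 fell in nucleoplasm, where 143 of 490 lncRNAs passed in either direction. Before it 14 of 53 rose and 1 fell (17.8% and 9.59% of all lncRNAs), with a median of 0.63 beside 0.21. The fall was that of Gm37303, to 9.58, 3.28 and 3.39 from 49.7, 74.5 and 38 (log2 -2.20, SE 0.56, adjusted p = 0.000719). Gm28791 had 225, 239 and 142 without IAA and 1179, 1278 and 1146 with it (log2 2.56, SE 0.25, adjusted p = 1.99e-21 in limma). Gm38359 had 128, 88.5 and 40.2 and 367, 396 and 417 (log2 2.22, SE 0.31, adjusted p = 2.685e-11 in limma). Because limma shares its estimate of spread among lncRNAs, these p-values do not rest on the 3 libraries of each group alone. In edgeR on recovered reads, an alternative, the log2 values were 2.57 and 2.21 (adjusted p = 3.54e-12 and 8.36e-08). In cytoplasm 2 of 36 tested rose and 0 fell (6.62% and 4.02% of all lncRNAs), and 17 members were too low to test. At unadjusted p under 0.05 stood 5 members, and 92 of 423 lncRNAs. Gm28791 went there from 95.8, 175 and 26.6 to 333, 303 and 446 (log2 2.06, SE 0.51, adjusted p = 0.00132) and Gm37258 from 5.99, 16.9 and 37.2 to 83.3, 101 and 178 (log2 2.29, SE 0.76, adjusted p = 0.0326). With no filter on low values neither passed (adjusted p = 0.094 for Gm28791). Gm28791 alone passed with a pseudocount of 1, without library 1 of the cells without IAA and without any 1 of the 3 IAA libraries.

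U1 AMO and SNRNP70 loss were read in separate lines and libraries, so their calls on chromatin can be counted together. Of the 22 members that rose with U1 AMO, 12 also rose in polyA RNA after SNRNP70 loss (54.5% of 22 and 36.4% of 33), where 19.19% of all 172 rose in polyA RNA. They were Gm28791, Gm36989, Gm37115, Gm37522, Gm37558, Gm37906, Gm38359, Gm40309, Gm42986, Gm43312, Gm43313 and Gm43571. Of the 104 that fell with U1 AMO, 38 fell in polyA RNA (36.5% of 104 and 70.4% of 54), where 31.4% of all 172 fell. Over 938 lncRNAs tested in both, 17 of 39 that rose with U1 AMO rose in polyA RNA (43.6%, where 10.55% of 938 did) and 269 of 520 that fell with U1 AMO fell there (51.7%, where 40.6% did). After centring all 12 of the members that rose in both kept both calls, against 4 of the 38 that fell in both. Members that rose in both then numbered 29. Centring moved values upward in both comparisons, which favours rises over falls, so this contrast does not show the rises to be sturdier. Opposite calls were found in 12 members, at shares near those of all lncRNAs. Of members that fell with U1 AMO 11 of 104 rose in polyA RNA (10.6%), beside 42 of 520 lncRNAs (8.08%). Of those that rose with U1 AMO 1 of 22 fell in polyA RNA (4.55%), beside 2 of 39 lncRNAs (5.13%). Gm38366 rose with U1 AMO (0.77) and fell after SNRNP70 loss (-0.70), a call lost after centring (adjusted p = 0.503) and without any 1 of the 3 0 h libraries (0.0525 to 0.0896). The other 11 fell with U1 AMO and rose after SNRNP70 loss: Gm19721, Gm26869, Gm36955, Gm37914, Gm37983, Gm42546, Gm43484, Gm44567, Gm45205, Gm45206 and Gm45221. After centring 3 of these 11, Gm26869, Gm37983 and Gm45206, kept both calls. In Gm45206 the values were 5.84, 5.07 and 5.5 with control AMO and 1.95, 2.27 and 2.32 with U1 AMO (log2 -1.25, SE 0.22, adjusted p = 0.000655), opposite to its polyA rise above. Gm45205 went from 0.32, 0.18 and 0.3 to 0.76, 0.85 and 1.26 in polyA RNA (log2 1.52, SE 0.28, adjusted p = 0.00313) and, as a description, from 2.97, 1.59 and 2.18 to 5.49, 6.53 and 4.65 in total RNA. AMO libraries held total RNA and the degron test polyA RNA, and treatments lasted 2 h and 4 h, so kind of RNA, time and way of losing U1 cannot be told apart. Across the 172 members the 2 changes had a Pearson r of 0.42 (Spearman 0.40), and across 938 lncRNAs 0.42; members share libraries, and this is a description. Of 12 members whose new chromatin RNA fell, 11 also fell with U1 AMO (31 of all 53 did, 58.5%, and 93 of 121 such lncRNAs, 76.9%), and Gm28791, Gm38359 and Gm40309 rose in all 3 of these comparisons.

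**Figure D5:**
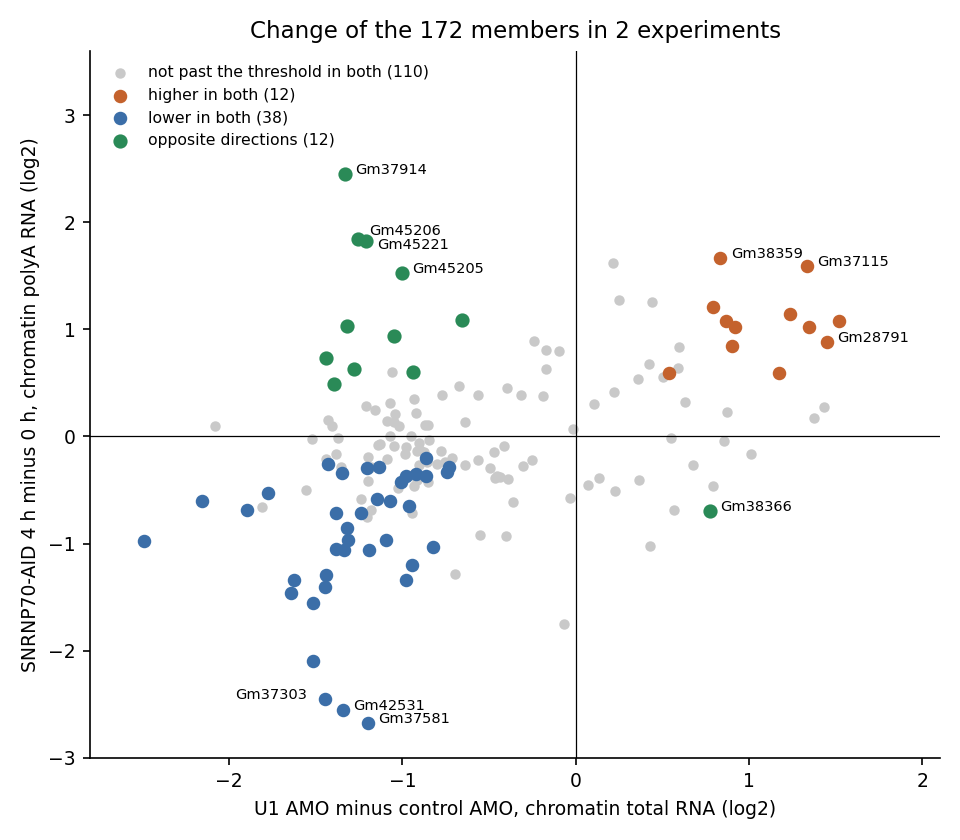
Log2 change on chromatin of each of the 172 members with U1 AMO (total RNA, horizontal) and after 4 h of SNRNP70 loss (polyA RNA, vertical), coloured by calls at adjusted p 0.05. The 38 members lower in both lie at lower left, the 12 higher in both at upper right, and 11 of the 12 with opposite calls at upper left.

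In polyA RNA at 0 h the members were lower against total RNA than other Gm lncRNAs, and also lay on chromatin. The log2 ratio of polyA to total FPKM on chromatin had a median of -1.57, with 18 of 172 above 0, beside -0.14 for the other Gm lncRNAs. Its denominator is the level that chose the members, so this is a description. It ran from -4.39 in Gm38374 to 2.54 in Gm38162. Gm38162 had 1.45, 0.99 and 1.42 FPKM in total and 7.46, 8.47 and 7.92 in polyA RNA. In libraries that the choice did not use, the polyA level on chromatin was above that in whole cells in 171 of 172 members, with a median log2 ratio of 1.85 beside 1.14 and 358 of 426 (84%) for the other Gm lncRNAs and 773 of 947 (81.6%) for all lncRNAs. The headers name spike-in scaling for chromatin and not for whole cells, so the ratio is no amount, and only its order between lists can be read.

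In 10 of the 172 members no treatment comparison passed: Gm28417, Gm36527, Gm37139, Gm37297, Gm37954, Gm38365, Gm4117, Gm42764, Gm44153 and Gm44901, listed after their values were seen. Members with neighbouring numbers did not always have the same calls. Gm43312 and Gm43313 rose by 1.52 and 1.35 with U1 AMO on chromatin, and by 1.08 and 1.03 in polyA RNA after SNRNP70 loss. In polyA RNA Gm37018 had a log2 value of 0.84 and Gm37019 of -0.71, and both passed. With U1 AMO Gm37019 fell (-1.38), and Gm37018, at 0.60, did not pass. Gm45221 fell with U1 AMO (-1.21), and Gm45222, at 0.59, did not pass.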

How the data were processed

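Per the file headers, the authors deposited lncRNA tables as FPKM, scaled to spike-in RNA for the fractions, and SLAM-seq tables as a spike-in normalized signal, the scaled count of reads with T-to-C changes. TopHat, Cufflinks, CASAVA and the build mm10 are named, per the submitters' processing notes; for versions, annotation and strand setting nothing is stated. limma 3.58.1 (R 4.3.3, eBayes with trend) tested log2(value + pseudocount), with a pseudocount of 0.2 for AMO FPKM, 0.1 for AID FPKM and 8 for SLAM-seq. Such folds understate changes of low RNAs. lncRNAs at or above the pseudocount in at least 3 libraries of a fit were tested, and p-values were adjusted (Benjamini-Hochberg) over all lncRNAs tested. Calls passed adjusted p 0.05, two-sided. AMO fits of a fraction held all AMO groups of that fraction. The chromatin against soluble and shift fits held all AMO, or all total RNA AID, groups of chromatin, cytoplasm and nucleoplasm. The other SNRNP70 and SLAM-seq fits held only the groups compared.

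In 17 of 18 SLAM-seq columns at least 99.8% of values were whole reads within 0.1 read. edgeR 4.0.16 (quasi-likelihood) on those reads was an alternative chosen after seeing the data. It called 18 members on chromatin, 2 in cytoplasm and 13 in nucleoplasm. Over all lncRNAs it called 157, 39 and 123.

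The named members are the 8 most abundant at 0 h, the 6 with the highest SLAM-seq signal and, by comparison, up to 4 (chromatin) or 2 (elsewhere) largest rises and falls past the threshold, with groups that did not overlap and a level at or above the median of all lncRNAs. Others were chosen after their values were seen. Members and lists were chosen with earlier results of these data known. The replicate numbers come from the labels. Deviations of same-numbered libraries from their group means correlated above 0.1 in all 3 pairs on AMO chromatin (0.284 to 0.526). They also did so in U1 AMO cytoplasm and in U1 and U2 AMO nucleoplasm, so the numbers may pair libraries there. The main tests used no block and leave such pairing out, and the replicate number as a block is an alternative. Of the columns of values, 1, whose name gives no fraction, was left out. The scripts were tested on simulated data. Chromatin immunoprecipitation peaks are on another build and were not used here.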

Additional observations from a re-analysis of the deposited data

Results flagged for a closer look

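By limma's interaction test the effect of U1 AMO passed as lower on chromatin than in the soluble fractions in 46 of 172 members, and in 252 of 1277 lncRNAs. After centring 0 members and 13 lncRNAs passed. The difference thus cannot be told apart from the lower level of chromatin libraries as a whole. Of the 46 the naming rule picks 2. Gm44017 had a difference of -1.74 (SE 0.36, adjusted p = 0.0034): its chromatin libraries went from 5.9, 7.06 and 4.48 FPKM to 1.89, 2.39 and 2.08, while cytoplasm went from 1.32, 1.03 and 0.54 to 1.55, 1.99 and 1.41. Gm45222 had a difference of -1.72 (adjusted p = 0.000475), with chromatin from 2.78, 3.13 and 3.56 to 4.13, 4.47 and 6.09 and nucleoplasm from 0.38, 0.31 and 0.24 to 3.17, 1.56 and 2.96. Gm44017 fell on chromatin, while Gm45222 did not pass there (log2 0.59) and rose in cytoplasm and nucleoplasm. After centring neither passed (-0.90 with adjusted p = 0.218, and -0.88 with adjusted p = 0.0544).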

How the results depend on the processing

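Counts of called members depended most on the scaling of libraries. With libraries centred on their medians, U1 AMO gave 68 calls on chromatin in place of 126, U2 AMO 29 in place of 10, U1+U2 AMO 55 in place of 112, U2 AMO in nucleoplasm 38 in place of 71 and the U1 shift 0 in place of 46. A pseudocount of 1 gave 84 for the shift and 1 in place of 2 in SLAM-seq cytoplasm, where no filter on low values gave 0. The cause was not tested. With the replicate number as a block, calls with U2 AMO were 24 on chromatin and 1 in place of 0 in cytoplasm, and calls in total RNA of whole cells were 11 in place of 22 (9 higher and 2 lower). In that last comparison and in polyA and SLAM-seq libraries not all 3 pairs correlated above 0.1. Such correlations cannot show whether same-numbered libraries share a culture, so whether they are paired there is not known. The block moved no other count by over 1.5 times. On chromatin it gave 28 higher and 121 lower members with U1 AMO and 25 and 119 with U1+U2 AMO. For U1 against U2 AMO it gave 26 and 104. Over all lncRNAs the calls with the block were 833, 810 and 705 in that order.

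Leaving out 1 library gave 106 to 117 calls for U1 AMO, 5 to 8 for U2 AMO, 89 to 117 for U1+U2 AMO and 78 to 106 for U1 against U2 AMO on chromatin. In cytoplasm it gave 8 to 15 for U1 AMO, in nucleoplasm 37 to 41 for U1 and 43 to 80 for U2 AMO, in whole cells 28 to 43 for U1 AMO, and 20 to 56 for the shift. After SNRNP70 loss it gave 70 to 81 in chromatin polyA RNA, 21 to 31 in whole-cell polyA RNA and 10 to 17 in whole-cell total RNA. In SLAM-seq it gave 11 to 16 on chromatin, 1 to 3 in cytoplasm and 11 to 17 in nucleoplasm. None of the members picked by the naming rule reversed its direction under the alternatives run. Of 13 further results of members named after their values were seen, 2 reversed, both of Gm43238 after centring (0.45 with U1 AMO and 0.09 in polyA RNA on chromatin). Read depth behind the FPKM values is unknown, so the counting error of members near the pseudocount in soluble fractions could not be estimated.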
